A study of Mus musculus with 3 samples.

Results

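The spatial transcriptomes of 1 sham and 1 I/R heart section were compared over all genes, to describe which broad functions were higher or lower in heart tissue after myocardial ischemia-reperfusion (I/R). The libraries were made with Visium, a method that reads the RNA of a thin frozen section from a grid of barcoded positions, each wide enough to cover a mixture of cell types. Both animals were C57BL/6 mice of 8 weeks and received vehicle by gavage for 7 days before the operation. In the I/R mouse the left anterior descending coronary artery was then tied for 30 min and reopened for 24 h, and in the sham mouse the needle was passed without a ligation. All spots with at least 200 detected genes were used, which were 2234 of 2237 spots in sham and 2082 of 2083 in I/R, or 4316 of the 6282 spots of the series. Unique molecular identifiers (UMIs, counted transcript molecules) of a section were added up over its spots, and the level of a gene was its sum as counts per 1e6 UMIs of that section (CPM). Of 32285 genes in the files, 11150 had at least 100 UMIs over both sections and were compared by the log2 ratio of I/R over sham. There was 1 section a side and no replicate error, so no test was possible, and every interval given is a 95% interval of counting error only. "Rose" and "fell" are used for genes whose level differed past 2-fold between these sections, and the mouse, the plane of the section and the operation cannot be told apart.

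The adult heart muscle cell fills most of its volume with sarcomeres, the contractile units of actin and myosin, and with mitochondria, which burn mainly fatty acids to pay for contraction. When flow through a coronary artery stops and returns, muscle cells in the area at risk die or survive under stress, and blood leukocytes enter to clear debris. Resident fibroblasts, endothelial cells and surviving muscle cells switch on genes for repair, for protein synthesis and for stretch sensing.

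The sections held 25118258 UMIs in sham and 30238530 in I/R. The median per spot was 10645 UMIs and 2040 genes in sham and 14672 UMIs and 2616.5 genes in I/R. Thinned to 7000 UMIs a spot, the medians were 1545 and 1622 genes. The 13 genes of the mitochondrial genome (mt- genes) took 48.6% of UMIs in sham and 44.3% in I/R. Every kept spot of both sections held UMIs of the cardiomyocyte list, which includes Tnnc1, Pln, Myh6 and Tnnt2, as the labelled tissue requires. This holds for the list as a sum and not for each member. The list took 2.37% of UMIs in sham and 1.83% in I/R. Of 9 atrial markers only 3 reached the UMI minimum, and the list took 0.004% of UMIs in sham and 0.003% in I/R. Both sections carried the Y-linked genes Ddx3y (40.3 CPM in sham, 29.6 in I/R) and Eif2s3y (25.8 and 21.1 CPM), and Xist had 2 UMIs in sham and 0 in I/R. Red cell markers took 0.290% of UMIs in sham and 0.412% in I/R, and their part in other differences was not tested. The sections shared 1568 spot barcodes, which are slide positions and not shared tissue. In sums of this kind, fewer cells of a type and less RNA per cell cannot be told apart.

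More genes were far higher than far lower in the I/R section. By CPM, 810 of 11150 genes (7.26%) rose past 2-fold and 39 (0.35%) fell. At 1.5-fold, 2487 genes (22.3%) were higher and 321 (2.88%) lower. The distribution was shifted upwards, with a median log2 ratio of 0.24 and a range of -0.31 to 0.88 between its 10th and 90th percentiles. Its 25th percentile was -0.037. Lists and genes below are therefore read against 0.24 rather than 0. Centred on that median, 473 genes (4.24%) rose and 133 (1.19%) fell. With the mt- genes left out of the denominator, the median was 0.13, and 615 genes (5.52%) rose and 72 (0.646%) fell. Under each of these 3 scalings the rises outnumbered the falls. List medians below the median of all genes but above 0 by CPM (endothelial, smooth muscle, collagen, basement membrane, complement, resident macrophage, angiogenic, hypoxia, mitochondrial ribosome, autophagy, solute carrier and zinc finger genes) turn below 0 when centred. Of the 11150 genes, 3195 had a counting interval wholly above the median and 3299 wholly below it. Interval counts of the lists below are to be read beside these numbers. A gene with many UMIs has a narrow interval, so for such genes the count mainly gives the side of the median. The share past 2-fold upwards was 10.35% for genes with a mean level under 10 CPM, 4.62% for 10 to 30 CPM and 4.30% for 30 to 100 CPM. It was 6.925% for 100 to 300 CPM, 8.52% for 300 to 1000 CPM and 4.17% from 1000 CPM, so it did not follow the level in 1 direction. The 72 genes from 1000 CPM had a median log2 ratio of -0.17, below 0 and below that of all genes.

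**Figure D1:**
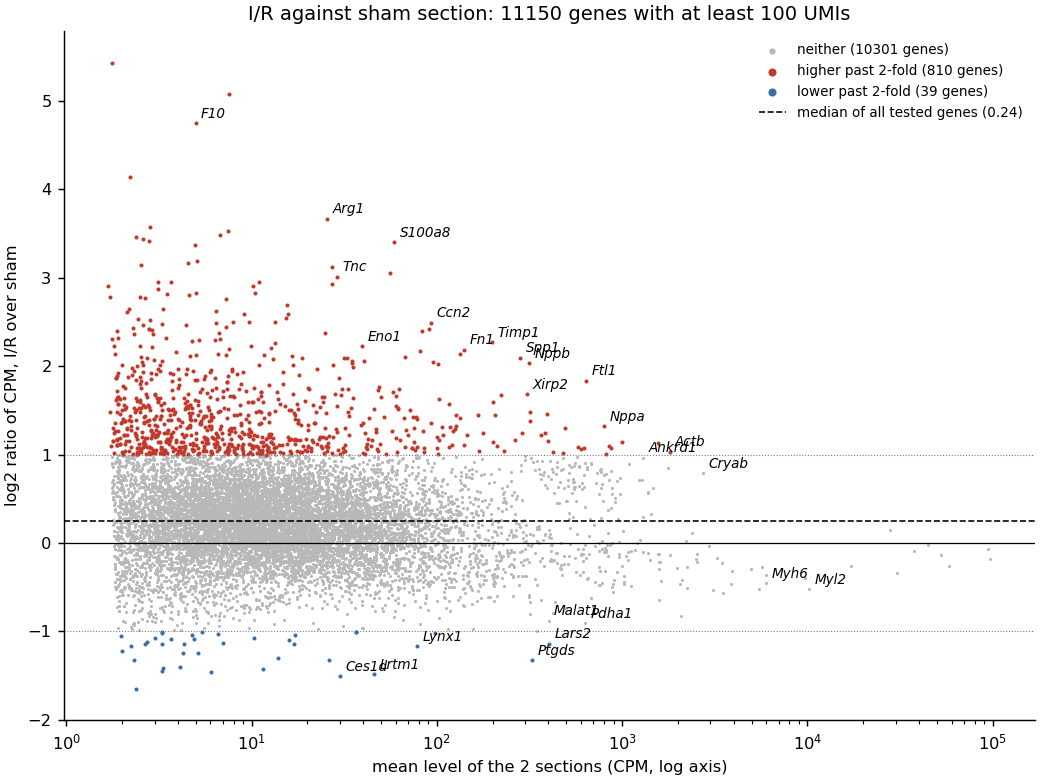
Log2 ratio of CPM, I/R over sham (vertical axis), against the mean CPM of both sections (horizontal log axis) for the 11150 genes, 1 point a gene, with genes past 2-fold in colour and the median of 0.24 dashed. The 810 rises reach far above the 39 falls, and contractile genes such as Myl2 and Myh6 lie below 0 at the right.

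Among genes of at least 20 CPM in the higher section, those with the largest rises encode calcium-binding proteins of myeloid cells, chemokines, matrix proteins and stretch-induced proteins of heart muscle. S100a8 (chr3:90668978-90670035, mm10), a subunit of calprotectin from neutrophils and monocytes, was at 10.2 CPM in sham and 107.9 in I/R, a 10.6-fold rise (log2 3.40, interval 3.22 to 3.59). Ccn2, a matrix-associated growth factor modulator, was at 28.2 CPM in sham and 158.3 in I/R (log2 2.49). Tgfbi, an adhesion protein of the matrix, had 28.5 and 153.1 CPM. Timp1, an inhibitor of metalloproteinases, was at 68.2 and 328.9 CPM, and Fn1, fibronectin, at 50.4 and 229.4 CPM. Some genes with a lower level in I/R moved further. Arg1, the arginase of activated macrophages (chr10:24915221-24927484), was at 3.74 CPM in sham and 47.5 in I/R, a 12.7-fold rise. Chil3, a chitinase-like protein of monocytes, S100a9, the partner of S100a8, Tnc, tenascin C, and Sprr1a, a cross-linking protein induced in stressed muscle, rose by 8.67, 8.30, 8.05 and 7.59-fold. In every one of these genes the counting intervals of the sections lay apart.

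The largest falls were smaller than the largest rises and came from different functions. Ptgds, the prostaglandin D synthase (chr2:25466709-25470046), fell from 466 CPM in sham to 186 in I/R (log2 -1.32, interval -1.37 to -1.28). Ces1d, a carboxylesterase, was at 44.5 and 15.6 CPM, and Lrtm1, a membrane protein, at 67.4 and 24.1 CPM. Lynx1, a modulator of acetylcholine receptors, and Clec3b, tetranectin, were at 108.7 and 37.6 CPM in sham and at 48.4 and 15.01 CPM in I/R. Rom1, a membrane protein, the locus Gm31251 and Bc1, a short cytoplasmic RNA, also fell, by 2.15, 2.21 and 2.03-fold. Lars2, mitochondrial leucyl tRNA synthetase, was at 554 CPM in sham and 252 in I/R, and Gm42418, a locus that overlaps ribosomal RNA sequence, at 2669.7 and 1505 CPM. Reads of ribosomal RNA can be assigned to such loci, so the value of Gm42418 is uncertain. Other genes, Lars2 included, were not checked for such reads. Pdha1, the catalytic subunit of pyruvate dehydrogenase, Fbxo40 and Fbxl22, F-box proteins of muscle, and Dynll2, a dynein light chain, were 1.88 to 1.997-fold lower, just short of the 2-fold threshold.

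**Figure D2:**
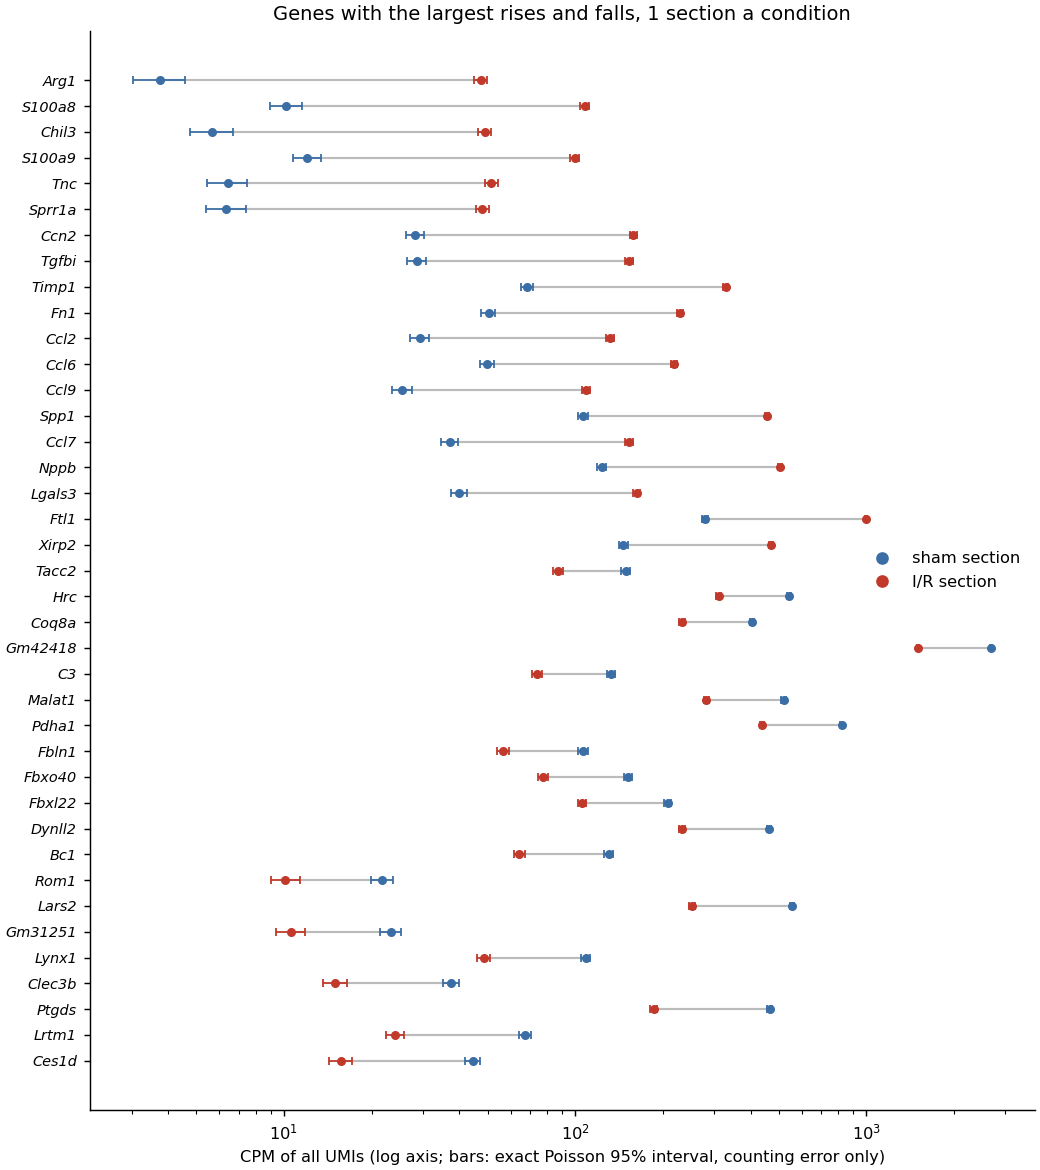
CPM of all UMIs (log axis) in the sham (blue) and I/R (red) section for the genes with the largest rises and falls among genes of at least 100 CPM and among those of 20 to 100 CPM, with exact Poisson 95% intervals. Arg1 and S100a8 at the top differ by 12.7 and 10.6-fold and Ces1d at the bottom by 2.84-fold.

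The most marked response among heart muscle genes was that of genes induced by stretch or expressed in the fetal heart. Of 12 genes on this list 7 rose past 2-fold (7.26% of all genes), none fell (0.35% of all genes), the median log2 ratio was 1.18, and the list took 0.241% of UMIs in sham and 0.512% in I/R. The natriuretic peptides, hormones that unload the heart, were at 124 CPM in sham and 505 in I/R for Nppb (4.09-fold) and at 458 and 1146 CPM for Nppa (log2 1.32). Myh7, the slow myosin heavy chain, had 100.1 CPM in sham and 301.9 in I/R. Xirp2, an actin-binding protein of the intercalated disc, rose from 146 to 469 CPM and Flnc, filamin C, from 151 to 310 CPM. Nmrk2, a nicotinamide riboside kinase, was at 12.5 and 53.1 CPM, and Ankrd2, a stretch-responsive ankyrin repeat protein, at 0.995 and 9.09 CPM. Ankrd1, its relative, was at 879 CPM in sham and 1715 in I/R, a difference of 1.95-fold. Enah and Uchl1 were 1.67 and 1.62-fold higher. Acta1, skeletal actin, had 396 and 415 CPM and was the only member below the median of all genes.

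Promoters were searched for only some lists, namely the stretch and fetal, ribosomal protein, nucleolar, actin cytoskeleton, fatty acid, thin filament and immediate early genes. Other lists were not searched. Among those searched with promoter entries for at least 80% of their genes, the stretch and fetal genes most often held TATAAA, the letters of the TATA box. This motif was 1 of 14 searched in both strands of the 250 bases before the start site. It was chosen for display after the counts were seen. The others were CCAAT box, GC-box, AP-1, CRE, E-box, ETS, STAT, ERR, ARE, ATF4, CArG, MEF2 and NF-kB motifs. The letters TATAAA were present in 5 of 11 promoters of the list (45.5%, exact interval 16.75 to 76.6%) and in 581 of 8954 promoters of all compared genes (6.49%). They were in 2 of 31 promoters of the actin cytoskeleton list and in none of 21 promoters of fatty acid oxidation. Other pairs of list and motif differed too. In the thin filament list NF-kB was in 4 of 13 promoters (8.64% of all compared genes) and CArG in 2 of 13 (1.21%). The letters TATAAA began at position -31 in Nppb, -9 in Nppa, -46 in Nmrk2, -29 in Ankrd2 and -7 in Acta1. The last 60 bases before the RefSeq start site (GRCm38.p6) of these 5 genes are shown with TATAAA in capitals, because the letters were most frequent in this list:
Nppb, chr4:147985840-147985899, plus strand: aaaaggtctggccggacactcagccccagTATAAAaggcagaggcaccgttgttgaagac
Nppa, chr4:148000662-148000721, plus strand: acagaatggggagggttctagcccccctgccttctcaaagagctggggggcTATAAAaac
Nmrk2, chr10:81202038-81202097, minus strand: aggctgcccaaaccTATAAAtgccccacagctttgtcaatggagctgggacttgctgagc
Ankrd2, chr19:42035967-42036026, plus strand: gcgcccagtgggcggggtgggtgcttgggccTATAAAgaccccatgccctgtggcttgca
Acta1, chr8:123894776-123894835, minus strand: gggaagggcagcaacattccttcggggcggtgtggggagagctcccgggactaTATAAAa
A match describes the letters at any distance within the 250 bases, and not a working TATA box or a bound factor. Acta1 holds them at log2 0.07 while Nppb holds them at 2.03. Among the genes that rose, 640 of 810 had a promoter entry (79.0%), under the 80% set for such a comparison, so no share is drawn from them. The ribosomal protein (76.5%) and immediate early lists (76.0%) were under it too and are left out of the comparison.

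Genes of the adult contractile apparatus were lower by modest amounts, and nearly all together. All 6 cardiomyocyte markers had intervals below the median of all genes, with log2 ratios of -0.54 (Tnnc1, troponin C) to -0.17 (Tnnt2, troponin T). In the thick filament and M-band list 9 of 11 intervals lay below that median, and in the thin filament and Z-disc list 12 of 15. No gene of the thick filament list passed 2-fold. Myl2, the ventricular regulatory light chain, was at 12116 CPM in sham and 8417 in I/R, a difference of 1.44-fold. Myh6, the adult myosin heavy chain, was at 6917 and 5054 CPM, and Tcap, a titin cap protein of the Z-disc, at 1928 and 1230 CPM. Single genes went the other way. Synpo2l, an actin-binding protein of the Z-disc, rose to 2.05-fold, Cryab, a small heat shock protein of the sarcomere, was at 1996 and 3448 CPM, and Des, the intermediate filament desmin, at 759 and 1407 CPM. Des belongs to the intercalated disc and costamere list, of which 15 of 18 members lay below the median of all genes.

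Calcium handling and electrical genes were lower in the same range. The calcium handling list had a median log2 ratio of -0.28, with 14 of 16 intervals below the median of all genes. Over all genes this was so for 3299 of 11150. Hrc, a calcium buffer of the sarcoplasmic reticulum, was at 541 CPM in sham and 311 in I/R, Trdn, triadin of the release complex, at 202 and 128 CPM, and Atp2a2, the calcium pump SERCA2, at 4496 and 3258 CPM. Sri, sorcin, went the other way, with 26.4 and 40.5 CPM. Ion channels and gap junction genes had a median of -0.37, with 22 of 25 intervals below that of all genes. Scn4b, a sodium channel beta subunit, fell past 2-fold, from 7.21 to 3.04 CPM, and Kcnip2, a subunit of the transient outward potassium channel, was at 52.8 and 27.2 CPM. Gja5, connexin 40, was the member with the highest ratio, at 4.06 and 6.68 CPM. Beta-adrenergic and cyclic nucleotide genes lay closer to zero (median -0.08), with Adrb1, the main cardiac adrenergic receptor, at 21.8 CPM in sham and 14.5 in I/R and the receptor kinase Grk2 at 29.2 and 51.5 CPM. None of the 19 compared members of this list passed 2-fold.

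Oxidative metabolism was lower across its steps. All 25 genes of fatty acid uptake and oxidation and all 21 of pyruvate handling and the citric acid (TCA) cycle had intervals below the median of all genes, and no gene of either list passed 2-fold. Their median log2 ratios were -0.27 and -0.33. Fabp3, the fatty acid carrier of heart muscle, was at 4179 CPM in sham and 2820 in I/R, and Lpl, lipoprotein lipase, at 2628 and 1846 CPM. Acadvl, the dehydrogenase for very long chains, had 356 CPM in both sections. Pdha1 was at 823 and 438 CPM and Got1, an aspartate transaminase, at 530 and 334 CPM. Targets of the receptor PPAR-alpha were split, with Ucp3, a mitochondrial carrier, at 8.88 and 4.37 CPM and Pdk4, a kinase that inhibits pyruvate dehydrogenase, at 41.1 and 21.5 CPM, whereas Angptl4, a secreted lipase inhibitor, rose from 7.64 to 28.4 CPM.

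The respiratory chain moved less than the fuel pathways that feed it. Nuclear genes of complex I had a median log2 ratio of -0.12, with 34 of 36 intervals below that of all genes, and those of complexes II to V a median of -0.12, with 39 of 46. None of them passed even 1.5-fold. The 13 mt- genes ranged from -0.37 (mt-Nd6) to 0.15 (mt-Nd2). Mitochondrial ribosomal proteins had a median of 0.07, above zero by CPM and below zero with mt- genes left out (-0.05). Glycolysis genes had a median of -0.08 with a wide spread. Eno1, the ubiquitous enolase, rose from 13.9 to 64.9 CPM, Slc16a3, a lactate exporter, from 3.94 to 13.7 CPM, and Slc2a1, the glucose transporter GLUT1, from 7.33 to 16.5 CPM. Pgam2, the muscle phosphoglycerate mutase, was at 870 and 530 CPM. The genes of the hypoxia list had a median of 0.10 and 1 of 18 rose, against 7.26% of all genes.

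Genes for making proteins were higher as a group. Cytosolic ribosomal proteins took 3.51% of all UMIs in sham and 6.03% in I/R, the largest gain in share of any list. Of 81 compared members, 79 had intervals above the median of all genes, 70 were past 1.5-fold (22.3% of all genes) and 11 past 2-fold (7.26% of all genes). Rpl41 was at 983 CPM in sham and 2156 in I/R, and Rpl10 (chrX:74270812-74273135) at 110 and 301 CPM. Ribosomal protein genes have many processed copies, and the counting of shared reads was not described in the sources used here. The single member below was Rpl3l, the striated muscle form of ribosomal protein L3, with 168 and 114 CPM. Nucleolar and ribosome assembly genes had 10 of 29 past 2-fold (7.26% of all genes). Among them were Nhp2, of the RNA-guided modification complex (28.03 and 75.1 CPM), and Npm1, nucleophosmin (67.5 and 167 CPM). Translation factors were more varied, with a median of 0.40 and 4 of 65 past 2-fold, a share close to that of all genes.

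Folding and export of proteins followed. Endoplasmic reticulum chaperones had a median log2 ratio of 0.72 and 18 of 21 intervals above the median of all genes. Hspa5, the chaperone BiP, was at 277 CPM in sham and 456 in I/R, and Creld2, a stress-induced disulfide isomerase, at 9.20 and 30.9 CPM. Secretory pathway genes had a median of 0.41, with Sec61b, a subunit of the translocation channel, at 39.8 and 96.4 CPM. Of the cytosolic heat shock proteins 2 of 24 rose, a share near the 7.26% of all genes. These were Hspb1 (209 and 573 CPM) and Hsp90aa1 (87.7 and 204 CPM), and the list took 0.552% of UMIs in sham and 0.827% in I/R. Proteasome subunits had a median of 0.43 and no member past 2-fold. Lysosomal genes had a median of 0.56, and 5 of 27 rose (7.26% of all genes). The macrophage cathepsin Ctss was at 31.8 and 91.3 CPM and Lamp1, a membrane protein of every lysosome, at 234 and 242 CPM.

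Leukocyte genes held the highest list medians. Of 18 neutrophil markers 9 reached the UMI minimum, 7 of these rose (7.26% of all genes) and their median log2 ratio was 2.58. Since low genes enter through the section where they are high, these counts are a description of the members that passed. All 18 monocyte and infiltrating macrophage markers passed, and 15 rose (7.26% of all genes). Spp1, osteopontin, was at 107 CPM in sham and 456 in I/R, Lgals3, galectin 3, at 39.8 and 162 CPM, and Lyz2, lysozyme, at 283 and 695 CPM. F10, coagulation factor X, had 9 UMIs in sham and 291 in I/R (log2 4.75, interval 3.80 to 5.89). Resident macrophage markers stayed near the median of all genes, at 0.18, with 1 of 18 past 2-fold, a share near the 7.26% of all genes. C1qb, of complement, was at 144 and 180 CPM, Folr2, a folate receptor, at 18.2 and 14.6 CPM and the scavenger receptor Cd163 at 7.25 and 4.96 CPM. Of 21 lymphocyte markers 3 reached the minimum, and none passed 2-fold.

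Several signals that draw leukocytes rose. Of 60 chemokines and receptors 27 reached the minimum and 14 of these rose (7.26% of all genes), a count that again describes only the members that passed. The monocyte attractants Ccl2 and Ccl7 were at 29.3 and 37.1 CPM in sham and at 132 and 153 CPM in I/R. Ccl6 was at 49.7 and 218 CPM and Ccl9 at 25.4 and 109 CPM. Ccl21a, a chemokine of lymphatic endothelium, was lower, at 65.3 and 40.1 CPM. In the leukocyte adhesion list 9 of 15 rose (7.26% of all genes). The junction proteins Jam2 (67.3 and 53.3 CPM) and F11r (58.6 and 49.7 CPM) were lower. Interleukin 1 receptor antagonist, Il1rn, rose from 1.87 to 12.6 CPM and haptoglobin, Hp, from 2.59 to 15.6 CPM. Complement genes held both directions. The anaphylatoxin receptors C3ar1 and C5ar1 rose, from 13.4 to 36.9 CPM and from 17.4 to 48.7 CPM, while the component C3 was at 133 CPM in sham and 73.8 in I/R and C4b at 17.6 and 11.5 CPM. Interferon-stimulated genes had a median of 0.53 with 5 of 28 past 2-fold, and the class II antigen presentation genes a median of 0.78 with 2 of 6, where 7.26% of all genes rose.

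Most fibroblast markers were lower, while most genes on the list of matrix genes of activated fibroblasts were higher. Both are sums over spots of mixed cell types, and which cells held these transcripts was not tested. Of 19 compared fibroblast markers 17 had intervals below the median of all genes, and the list median of -0.46 was the lowest of all lists. Clec3b was at 37.6 CPM in sham and 15.01 in I/R, Fbln1, fibulin 1, at 107 and 56.4 CPM, and Gsn, gelsolin, at 823 and 534 CPM. Pdgfra, the platelet-derived growth factor receptor used to label fibroblasts, rose from 14.7 to 33.8 CPM and was the only member past 2-fold upwards. Of 29 activated matrix genes 12 rose (7.26% of all genes), with a median of 0.68. Besides Fn1, Timp1, Tgfbi, Ccn2 and Tnc they included no gene that fell. Collagen chains were near the median of all genes (0.14). Col3a1, of the fibrillar collagens, was at 280 and 304 CPM and Col4a1, of the basement membrane, at 195 and 272 CPM, while the low-abundance chains Col6a6 and Col4a4 fell to 1.16 and 1.82 CPM. Inhba, the activin A subunit, and Fstl3, its secreted antagonist, rose by 11.5 and 5.66-fold.

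The non-muscle actin cytoskeleton was the largest list in which most genes rose. Of 34 members 18 were past 2-fold (7.26% of all genes) and 29 past 1.5-fold (22.3%), none fell, and the list took 0.451% of UMIs in sham and 0.929% in I/R. Actb, cytoplasmic actin, was at 1184 CPM in sham and 2422 in I/R, Tmsb4x, an actin monomer buffer, at 627 and 1382 CPM, and Vim, vimentin, at 168 and 468 CPM. Vessel wall and endothelial genes lay nearer to the median of all genes. Endothelial markers had a median of 0.14 and none of 29 passed even 1.5-fold. By CPM 20 of them lay above 0 and 10 above the median of all genes, led by Sox17, a transcription factor of arterial endothelium (6.05 and 8.86 CPM), with a lower level in I/R for Aqp1, a water channel (205 and 148.4 CPM), and Fabp4, a fatty acid carrier of capillaries (546 and 494 CPM). Pericyte markers had a median of -0.08, with the G-protein regulator Rgs5 at 233 and 153 CPM. Acta2, smooth muscle actin, was at 254 CPM in sham and 168 in I/R, and Npr3, a natriuretic peptide clearance receptor of endocardium, rested on 133 and 110 UMIs, or 5.29 and 3.64 CPM. Pdpn, podoplanin, rose from 13.5 to 56.4 CPM and was the only member past 2-fold in the endocardial and lymphatic list, whose median was -0.38.

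Growth and stress lists differed in direction. Of 28 cell cycle genes that reached the minimum 21 rose (7.26% of all genes), with a median of 1.21, among them Mcm5, of the replicative helicase (5.29 and 17.3 CPM), Rrm2, of ribonucleotide reductase (2.95 and 9.92 CPM), and Pcna, the sliding clamp (31.6 and 64.8 CPM). Cenpf, a kinetochore protein, was lower, at 7.17 and 4.20 CPM. Of 25 immediate early genes 8 rose, against the same 7.26%, led by Fosl1 (0.518 and 4.56 CPM) and Fos (2.91 and 16.4 CPM). In the list of antioxidant targets of NRF2 and iron storage, Ftl1, ferritin light chain, rose from 279 to 997 CPM and Hmox1, heme oxygenase, from 13.7 to 56.1 CPM, while Nqo1, a quinone reductase, was at 21.2 and 18.98 CPM and Fth1, ferritin heavy chain, at 2298 and 2485 CPM. Gdf15, a stress hormone, rose from 0.677 to 4.63 CPM and Cdkn1a, a cell cycle inhibitor, from 9.40 to 31.4 CPM, yet Gadd45a, a growth arrest gene, was at 15.5 and 8.995 CPM. The metallothioneins Mt1 and Mt2, metal-binding stress proteins, were at 311 and 68.7 CPM in sham and at 585 and 187 CPM in I/R. Mitochondrial and peroxisomal antioxidants had a median of -0.06, with 7 of 9 below the median of all genes. Clock genes had a median of -0.20, and the hour at which the hearts were collected was not tested. The nuclear RNA Malat1 was at 519 and 282 CPM, whereas Neat1 was at 197 and 233 CPM.

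**Figure D3:**
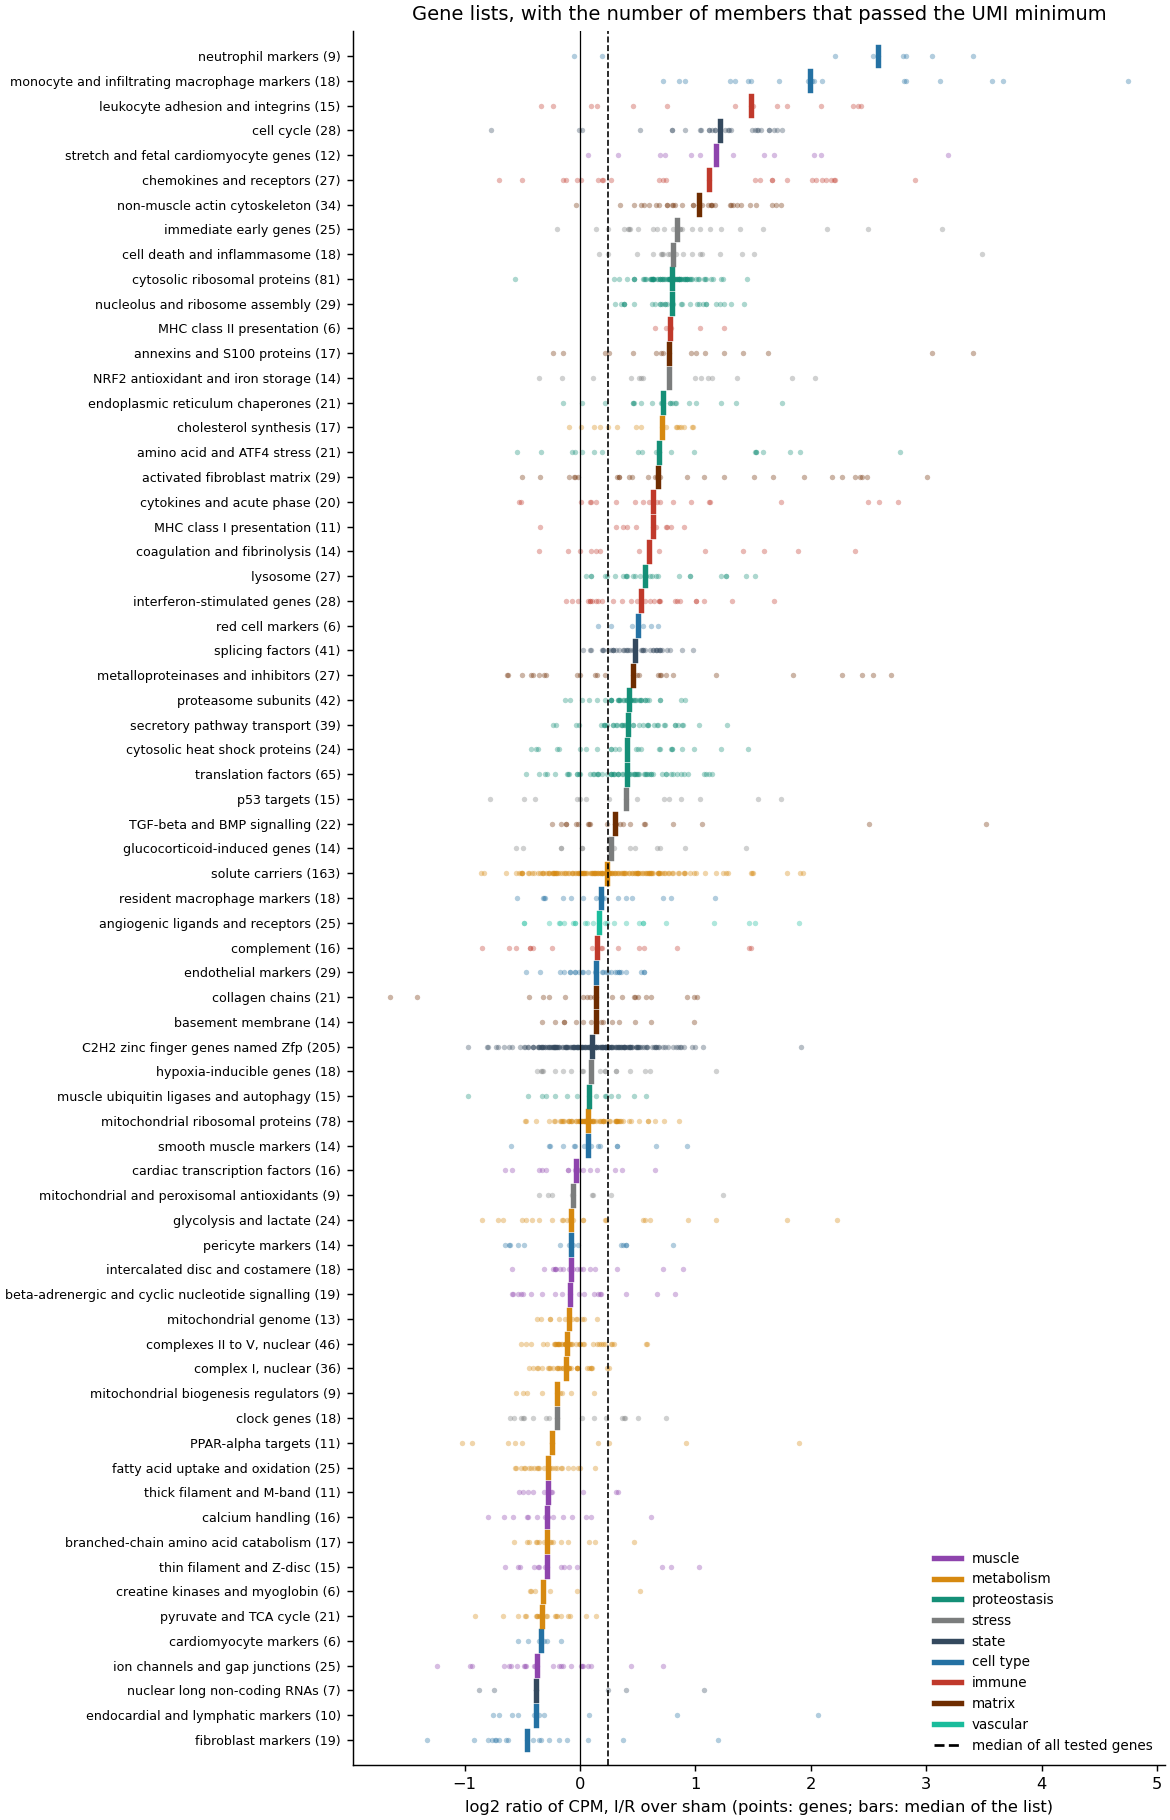
Log2 ratio of CPM, I/R over sham, for the members of each list with at least 5 compared genes (points) and the list median (bar), ordered by median and coloured by broad function, with the median of all genes (0.24) dashed. Leukocyte, cell cycle, stretch and actin lists stand at the top, and fibroblast marker, ion channel, cardiomyocyte and fuel oxidation lists at the bottom.

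The difference was not spread evenly over the section. Cardiomyocyte markers took 1.96 to 2.81% of a spot's UMIs between the 10th and 90th percentiles of sham spots and 0.716 to 2.47% of I/R spots, and 51.2% of I/R spots lay below the 10th percentile of sham. For fatty acid oxidation this share was 48.3%. Ribosomal proteins took 2.54 to 4.63% of UMIs in sham spots and 3.19 to 11.6% in I/R spots, and 55.0% of I/R spots lay above the 90th percentile of sham, the highest share of all lists. For cytosolic heat shock proteins it was 51.1%, for the actin cytoskeleton 43.4%, for stretch and fetal genes 42.8% and for monocyte markers 39.4%. The upper tails in I/R were long, with an actin cytoskeleton share of 2.94% at the 90th percentile against 0.674% in sham.

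**Figure D4:**
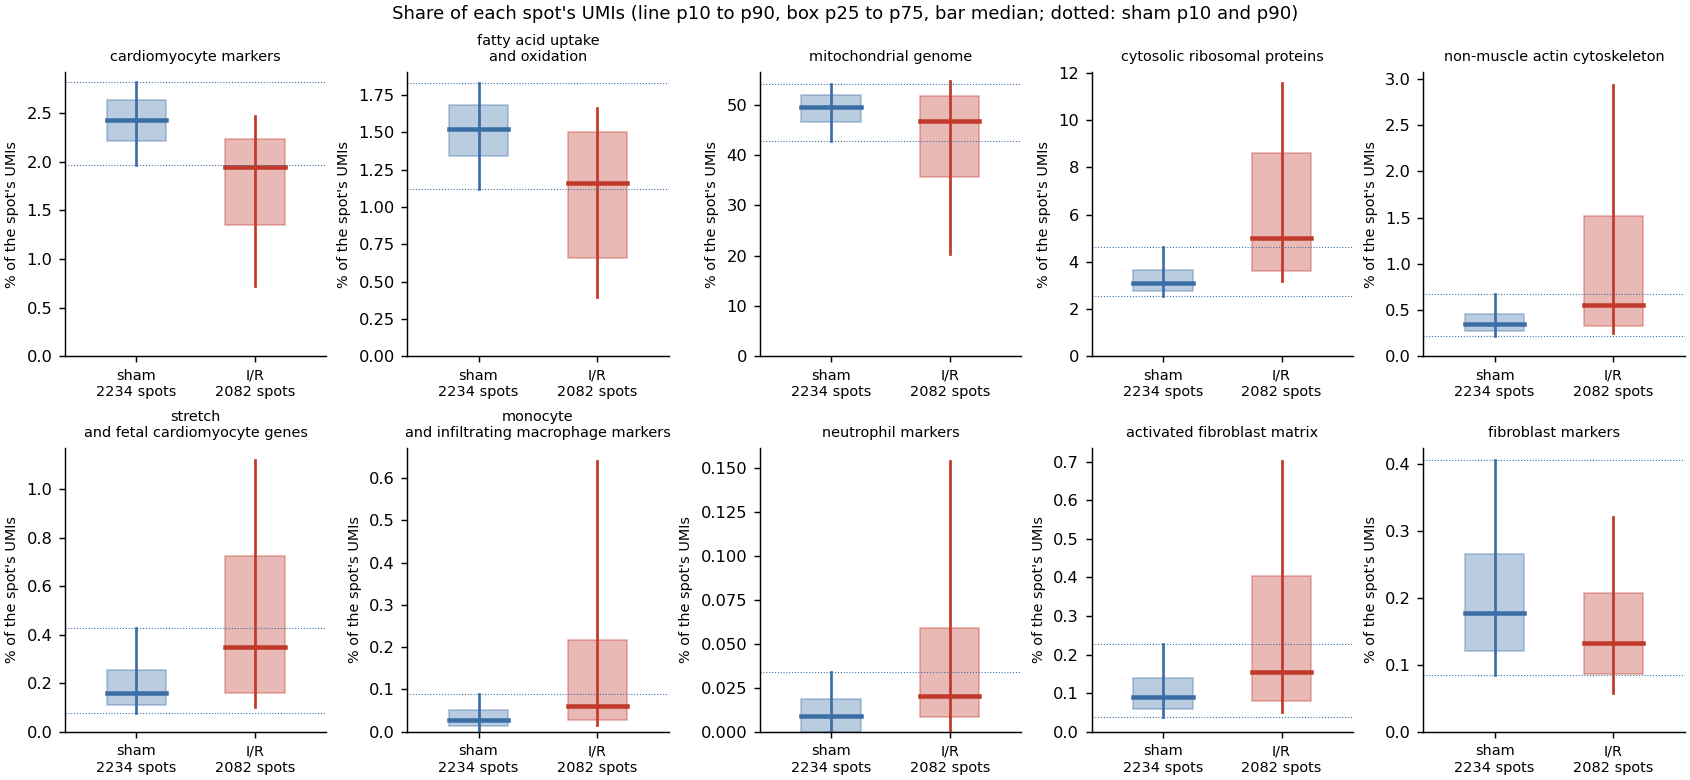
Share of each spot's UMIs (vertical axis, percent) taken by 10 lists in sham (2234 spots, blue) and I/R (2082 spots, red), as 10th to 90th percentile (line), quartiles (box) and median (bar). The I/R boxes of cardiomyocyte and fatty acid genes reach below the sham range, and those of ribosomal protein, actin and leukocyte genes reach above it.

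To describe how concentrated a list was, UMIs of each spot were split at random in 2 parts, spots were ranked on one part and the share was read from the other. The 10% of I/R spots that ranked highest for monocyte and infiltrating macrophage markers held 47.95% of the UMIs of that list and 6.98% of all UMIs. The corresponding sham spots held 49.3% and 10.2%, so the concentration was present there as well. For neutrophil markers the I/R share was 34.8%, for the actin cytoskeleton 24.9%, for ribosomal proteins 17.1% and for fatty acid oxidation 14.3%. Outside these spots the I/R level was still higher, by log2 1.59 for monocyte markers, 1.06 for the actin cytoskeleton and 0.78 for ribosomal proteins. At the level of genes, S100a8 had a UMI in 4.22% of sham and 24.6% of I/R spots after thinning to 7000 UMIs, Nppb in 48.6% and 70.0%, and Kcnip2 in 32.1% and 16.6%.

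A large part of the I/R section had a low share of mt- UMIs. The 10th to 90th percentiles of the mt- share per spot were 42.8 to 54.2% in sham and 20.3 to 54.7% in I/R, and 768 I/R spots (36.9%) lay below the 10th percentile of sham, where 224 sham spots lie by construction. The sections were therefore compared once more within the 1314 I/R and 2010 sham spots at or above that percentile, a split chosen after the data were seen. There 62 of 10119 genes (0.613%) rose past 2-fold and 24 (0.237%) fell, and the median of all genes was -0.01.

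The lists differed in how high their medians were in spots that kept the mt- share. The mt- genes took 50.2% of UMIs in these sham spots, 50.7% in these I/R spots and 30.4% in the other I/R spots. They are part of the CPM denominator, so choosing spots by mt- share in itself lowers the CPM of other genes. List medians there are read against the median of all genes there, -0.01. The part of each drop due to the choice was not tested. Since fewer genes reach the minimum there, a list's medians can cover different members. Leukocyte adhesion had a median of 1.48 over 15 genes in all spots and 0.10 over 10 genes in these, lysosomal genes went from 0.56 to 0.01, class II presentation from 0.78 to -0.08, and the actin cytoskeleton from 1.03 to 0.30, with Actb at 968 CPM in sham and 1006 in I/R. Stretch and fetal genes kept a higher median, 0.77, with 5 of 12 past 2-fold (0.613% of all genes in these spots). In these spots Nppb was at 111 CPM in sham and 296 in I/R, Nppa at 272 and 617 CPM, Myh7 at 91.5 and 268 CPM and Ankrd2 at 0.761 and 4.14 CPM. Sprr1a was at 2.15 and 13.6 CPM and Fhl1, a LIM protein of stretched muscle, at 96.0 and 231 CPM. Ribosomal proteins had a median of 0.44 and took 3.22% of UMIs in sham and 4.33% in I/R. Of the neutrophil markers 7 reached the minimum there, and their median was 1.29. Low genes enter through the section where they are high, so this median describes only the members that passed. The whole list took 0.0134% of UMIs in these sham spots and 0.0194% in these I/R spots. S100a8 was at 6.58 and 17.7 CPM. The medians were -0.20 for cardiomyocyte markers, -0.14 for the TCA cycle and -0.11 for fatty acid oxidation, while that of the intercalated disc moved from -0.08 to 0.02 and those of the respiratory chain lists moved to 0.01 for complex I and 0.03 for complexes II to V. Ptgds (478 and 213 CPM), Lars2 (576 and 261 CPM) and Bc1 (128 and 56.2 CPM) fell past 2-fold there as over all spots, and Malat1 (526 and 255 CPM) did so only in these spots. Acta2, too, fell past 2-fold only in these spots, from 210 to 73.5 CPM. Over all kept spots, 54.4% of its I/R UMIs were in the 10% of spots that ranked highest for it, against 30.8% in sham.

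**Figure D5:**
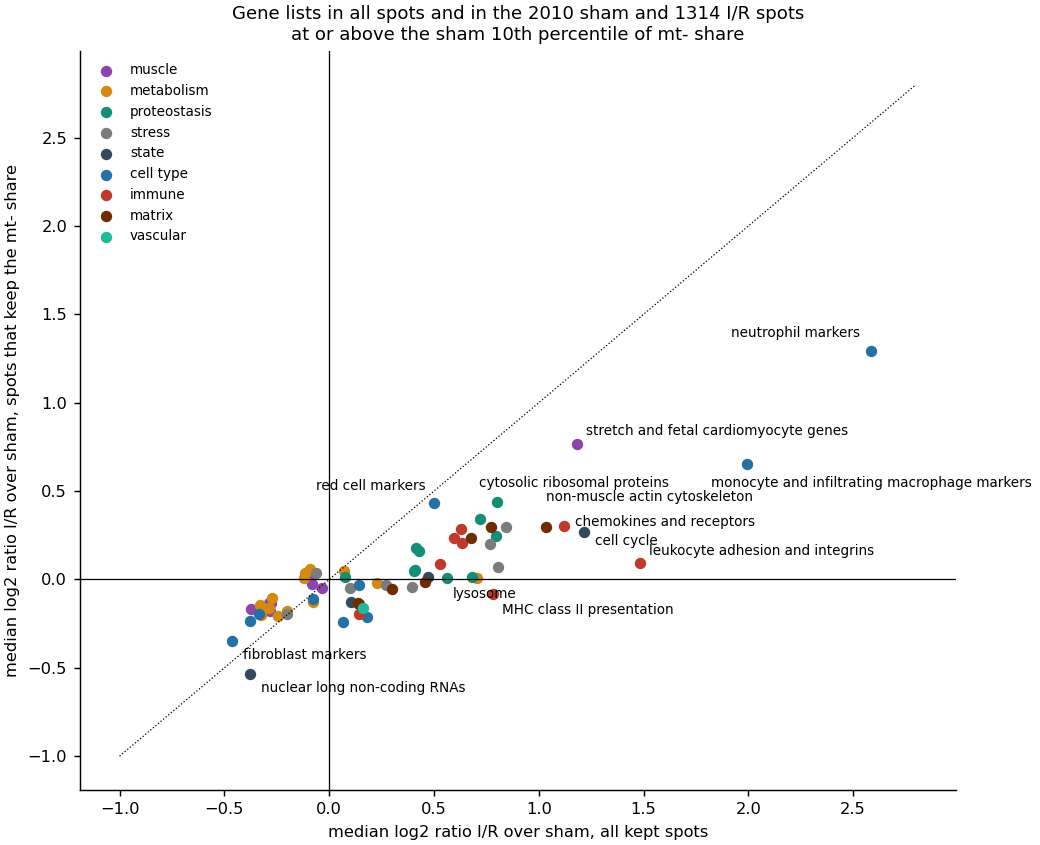
Median log2 ratio, I/R over sham, of each list with at least 5 compared genes over all kept spots (horizontal axis) and over the spots at or above the sham 10th percentile of mt- share (vertical axis), with the line of equal values dotted. Lists of leukocytes, actin and cell cycle lie far below the line, and stretch and fetal genes (1.18 and 0.77) and ribosomal proteins (0.80 and 0.44) lie nearer to it.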

How the data were processed

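The authors deposited raw UMI counts for each gene in each spot over tissue, made with Space Ranger (version 1.3.0 and build mm10 in the submitters' processing notes) while the paper states another version and a human reference. The files list mouse genes. Gene positions were taken from GENCODE M21, which held 32235 of the 32285 identifiers, and promoters from RefSeq. Groups came from the labels, and the section of the mouse given Shexiang Baoxin Pill was not used here. A spot needed 200 detected genes to be kept. Counts were summed per section and compared as CPM without pseudocount for genes with at least 100 UMIs over both sections, which held 99.8% of UMIs in sham and 99.7% in I/R. Intervals at 95% were exact Poisson for levels, exact binomial for shares and, for ratios, exact binomial given the summed count. Only the ratio intervals were tried on simulated data. Those counts were drawn with the counting error that the intervals assume, so the trial checks the calculation only. PCR duplicates were collapsed by UMI, and the intervals cover counting error only. No clustering, cell type naming of spots or test was applied, since each condition had 1 section.

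The genes named were the 15 largest rises and 15 largest falls among genes that reached 100 CPM in either section, the 5 largest of each among other genes that reached 20 CPM, and of each list the 2 members with most UMIs and the 2 highest and 2 lowest ratios, plus genes mapped by the study and sex-linked genes. Myh7, Flnc, Enah, Uchl1 and Fhl1 fall outside that rule and were named after their values were seen. The comparison, the lists and their members were chosen with earlier results of these data known. TMM factors (edgeR 4.0.16, R 4.3.3) and other scalings, filters and subsets of spots were alternatives. Computations used Python 3.11.15, numpy 2.4.6, scipy 1.17.1 and pandas 2.3.3. Some genes are not reported here.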

Additional observations from a re-analysis of the deposited data

How the results depend on the processing

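Other scalings moved all log2 ratios alike, by far less than the 2-fold threshold, and gene minimums left the ratios unchanged. Neither could therefore reverse any of the 849 genes past 2-fold in either direction. With equal weight, thinning or other filters on spots, all 849 also kept their direction. The exception was the restriction to spots at or above the sham 10th percentile of mt- share, an alternative chosen after seeing the data. Under it 810 of 849 kept their direction, and 664 of these were under 2-fold. For these counts no UMI minimum was set within those spots, so they include genes that the 62 rises and 24 falls there leave out. Among named genes, Itgal turned to -0.16 and H2-DMb1 to -0.16 there. Counts depended on the scaling. Genes higher past 2-fold numbered 810 by CPM, 497 with TMM factors, 484 with median-of-ratios factors, 473 when centred, 1359 with equal weight for each spot, 373 with at least 100 UMIs in each section and 62 in the spots that keep the mt- share, and 2487 past 1.5-fold and 246 past 3-fold. Genes lower past 2-fold numbered 39 by CPM, 72 without mt- genes, 113 with TMM, 120 with median-of-ratios factors, 133 when centred, 64 and 25 at gene minimums of 50 and 200 UMIs, 18 with 100 UMIs in each section, 24 in the spots that keep the mt- share, 321 past 1.5-fold and 1 past 3-fold. The median of all genes was 0.24 by CPM, 0.13 without mt- genes, 0.023 with TMM, 0.015 with median-of-ratios factors, 0.34 with equal weight, 0.22 without the 10% of spots lowest in mt- share, 0.21 with 100 UMIs in each section and -0.0056 in spots that keep the mt- share. The cause was not tested. No paired analysis was possible because sham and I/R had 1 section each, and no section could be left out for the same reason.

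TMM, median-of-ratios factors and leaving out mt- genes shift every log2 ratio by the same amount. Under them no list can change its side of the median of all genes. Of 69 lists with at least 5 genes, 66 stayed on their side with equal weight for each spot and 57 in the spots that keep the mt- share. Genes near the minimum of 100 UMIs have the widest intervals.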

Other observations

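Many proteins of heart muscle exist in a main form of heart or striated muscle, here called the muscle form, and a second form. The second form is used more widely, earlier in development or in other muscle. Of 22 such pairs that were listed after some of their values had been seen, 21 had both genes above the UMI minimum. In 21 of 21 the log2 ratio of I/R over sham was higher for the second form, with counting intervals that did not overlap, and the median was -0.43 for the muscle forms and 0.57 for the others, against 0.24 for all genes. The muscle forms lay below 0 in 20 of 21 pairs, so the count is a description of pairs picked with values known and not support for a switch between forms. The muscle enolase Eno3 was at 884 CPM in sham and 637 in I/R, while Eno1 was at 13.9 and 64.9 CPM. Myosin heavy chain Myh6 was at 6917 and 5054 CPM, while Myh7 was at 100.1 and 301.9 CPM. The elongation factor Eef1a2 was at 1034 and 747 CPM and Eef1a1 at 560 and 1179 CPM. Ribosomal protein Rpl3l was at 168 and 114 CPM and Rpl3 at 246 and 549 CPM. The glucose transporter Slc2a4 was at 145 and 103 CPM and Slc2a1 at 7.33 and 16.5 CPM. The smallest gap was that of the glycogen phosphorylases, with log2 ratios of -0.65 for Pygm and -0.39 for Pygb, so that here both forms were lower. The other exceptions to a muscle form below 0 and a second form above 0 were the cytochrome c oxidase subunit Cox8b, at 0.03, and the creatine kinase Ckb, at -0.03. Paralogs can share reads, and the widely used forms are also expressed by leukocytes, fibroblasts and vessels, whose part in these values was not tested.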
